A study of Mus musculus with 8 samples.

Results

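The genes described here are the cyclin-dependent kinase (CDK) inhibitors *Cdkn1a* (p21), *Cdkn1b* (p27), *Cdkn1c* (p57), *Cdkn2a* (p16 and p19), *Cdkn2b* (p15), *Cdkn2c* (p18) and *Cdkn2d* (the INK4d inhibitor), and the D-type cyclins *Ccnd1*, *Ccnd2* and *Ccnd3*. They were taken by gene symbol, 10 of the 53465 genes in the count table. RNA-seq was performed on mouse pancreatic ductal adenocarcinoma (PDAC) cells, 1 library for each line and condition and 8 in all, to ask which genes Smad4 restoration and TGFβ change in vitro.

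The lines, B73 and B87, were each grown from the pancreatic tumor of 1 mouse carrying Ptf1a-Cre, an LSL-rtTA3-IRES-mKate2 allele at Rosa26 and a doxycycline (Dox)-inducible *Smad4* shRNA linked to GFP at *Col1a1*. Every library therefore shares these alleles, and each line stands for a single tumor passaged on plastic. Smad4 off cells were kept on Dox, which drives the shRNA, and Smad4 on cells had been without Dox for 5 days. Both were then treated for 24 h with 100 pM TGFβ1 or with 2.5 µM SB505124, which blocks the kinase of the type I TGFβ receptor. No untreated cells were sequenced, so an effect of TGFβ1 and an opposite effect of SB505124 cannot be told apart, nor can the Smad4 state be told apart from exposure to Dox.

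Cells commit to division late in the first gap phase (G1), when D-type cyclins activate CDK4 and CDK6, the RB proteins are phosphorylated and E2F factors are released to transcribe S phase genes. INK4 inhibitors (*Cdkn2a*, *Cdkn2b*, *Cdkn2c*, *Cdkn2d*) bind CDK4 and CDK6 themselves, whereas CIP/KIP inhibitors (*Cdkn1a*, *Cdkn1b*, *Cdkn1c*) bind cyclin-CDK complexes. TGFβ is known to arrest many epithelial cells through *Cdkn2b* and *Cdkn1a* and through repression of *Myc*, and *Cdkn2a* is among the tumor suppressor genes most often lost in pancreatic cancer.

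Promoter sequences are shown for *Cdkn1a*, the inhibitor that rose under TGFβ1, and for *Cdkn2c* and *Cdkn2d*, the INK4 inhibitors that fell. Each window is the 250 bases before a RefSeq start on GRCm38.p6, written on the strand of the gene. RefSeq windows were found for 7 of the 10 genes, not for *Cdkn1c*, *Ccnd1* or *Ccnd2*. Capitals mark matches on either strand to the SMAD binding element (CAGAC), the GC-rich SMAD element (GGCGCC), the GC box bound by Sp factors (GGGCGG), an E2F element (TTCCCGC) and the core of a p53 half-site (ACATGT). *Cdkn1a* and *Cdkn2c* have 2 listed starts each. Those of *Cdkn1a* are at chr17:29090729-29090978 (upstream window) and chr17:29093519-29093768 (downstream window), both on the plus strand. The *Cdkn2c* window printed is that of its upstream start, at chr4:109666757-109667006, and its downstream window, at chr4:109665373-109665622, is described only. The *Cdkn2d* window lies at chr9:21291210-21291459, and all 3 are on the minus strand.
Cdkn1a, upstream start: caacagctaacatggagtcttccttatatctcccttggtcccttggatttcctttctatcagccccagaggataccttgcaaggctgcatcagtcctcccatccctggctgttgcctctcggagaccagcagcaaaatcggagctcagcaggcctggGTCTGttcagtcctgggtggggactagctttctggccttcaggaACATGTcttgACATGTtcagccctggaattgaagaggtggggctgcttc
Cdkn1a, downstream start: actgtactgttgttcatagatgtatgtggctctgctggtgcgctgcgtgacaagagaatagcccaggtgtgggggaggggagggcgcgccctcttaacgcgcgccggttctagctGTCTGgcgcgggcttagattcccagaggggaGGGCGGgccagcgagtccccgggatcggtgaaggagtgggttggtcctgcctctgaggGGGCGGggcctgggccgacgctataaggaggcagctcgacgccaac
Cdkn2c, upstream start: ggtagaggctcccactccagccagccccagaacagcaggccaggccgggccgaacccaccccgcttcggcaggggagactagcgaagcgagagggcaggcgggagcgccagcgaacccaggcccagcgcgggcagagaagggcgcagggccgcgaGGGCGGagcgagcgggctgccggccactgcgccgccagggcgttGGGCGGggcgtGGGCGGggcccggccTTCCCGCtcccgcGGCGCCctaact
Cdkn2d: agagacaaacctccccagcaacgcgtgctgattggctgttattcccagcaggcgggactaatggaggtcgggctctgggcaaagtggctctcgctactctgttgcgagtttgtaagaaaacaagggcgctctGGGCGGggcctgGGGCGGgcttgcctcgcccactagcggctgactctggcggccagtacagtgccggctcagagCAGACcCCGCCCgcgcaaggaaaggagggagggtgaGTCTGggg
The upstream *Cdkn1a* window held 2 p53 half-site cores, beginning 49 and 39 bases before the start, and a CAGAC match at 93 bases. The downstream *Cdkn1a* window held a CAGAC match at 135 bases and GC boxes at 104 and 46 bases. The upstream *Cdkn2c* window held no CAGAC match, GC boxes at 95, 51 and 40 bases, an E2F element at 25 bases and a GGCGCC at 12 bases. The downstream *Cdkn2c* window held a CAGAC match at 188 bases and none of the other elements. The *Cdkn2d* window held CAGAC matches at 44 and 8 bases, and GC boxes at 118, 106 and 38 bases. Of 32851 such windows over all genes, 42.2% held CAGAC, 32.7% the GC box, 9.59% GGCGCC, 4.58% the p53 half-site core and 3.82% the E2F element. CAGAC and the GC box are therefore common in windows of this length, and a match describes letters only.

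The labels were checked against the targeted gene first. *Smad4* stood at 33.7 to 35.5 CPM (reads of a gene relative to its library's TMM-adjusted total) in the 4 Smad4 off libraries and at 97.4 to 117 CPM in the 4 Smad4 on libraries. It was 3.31-fold higher on Dox withdrawal under TGFβ1 and 3.08-fold higher under SB505124. Library totals ran from 18389235 to 23440550 counts. Epithelial markers (keratins, *Cdh1*, *Sox9*, *Epcam*) summed to 1218 to 6209 CPM, although *Epcam* itself had only 3 to 39 counts. *Cdh1* had 225 to 8673 counts, *Krt7* 293 to 13461 and *Sox9* 492 to 1711. *Krt8* had 4744 to 47223 counts, *Krt18* 14225 to 47575 and *Krt19* 2994 to 29142. The acinar markers *Cpa1*, *Ctrb1* and *Ptf1a*, the leukocyte markers *Ptprc*, *Adgre1*, *Cd3e* and *Itgam* and the fibroblast markers *Dcn* and *Lum* had at most 3 counts in any library. Other markers of these lists had more counts: acinar *Cela1* 8 to 32 and *Prss2* 0 to 5, and leukocyte *Cd68* 23 to 126. Fibroblast *Pdgfra* had 12 to 154, *Pdgfrb* 0 to 653 and *Col3a1* 33 to 833. Endothelial *Kdr* had 7 to 506, *Cdh5* 0 to 54 and *Pecam1* 0 to 5. Summed acinar markers ranged from 0.499 to 1.37 CPM and leukocyte markers from 1.33 to 6.29 CPM. Summed fibroblast markers ranged from 2.45 to 65.3 CPM and endothelial markers from 0.702 to 26.1 CPM. In such bulk samples, fewer cells using a gene and less RNA per cell cannot be told apart.

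Of the 10 genes, 7 had enough counts to test and 3 did not. No library held a count of *Cdkn2a* or *Cdkn2b* (0 in each), and 3 counts, the limit a count of 0 allows, equaled 0.125 to 0.162 CPM. *Cdkn1c*, the CIP/KIP inhibitor known from imprinting and growth disorders, had 7, 4, 11 and 5 counts in B73 (off with SB505124, on with SB505124, off with TGFβ1, on with TGFβ1) and 5, 1, 4 and 4 counts in B87. Its highest library, B73 Smad4 off with TGFβ1, stood at 0.471 CPM, and a response to either treatment was not detectable at this depth.

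Scaled to gene length, *Ccnd1* was the most abundant of the 10 genes at 189 ± 48.0 CPM per kb (SD, n = 8), followed by *Cdkn1a* at 108 ± 49.0. *Ccnd2* followed at 39.4 ± 18.2 CPM per kb, then *Cdkn2d* at 25.7 ± 6.47, *Cdkn1b* at 18.1 ± 3.01, *Cdkn2c* at 17.3 ± 7.30 and *Ccnd3* at 6.04 ± 0.813. The range over libraries of each gene overlapped that of the next gene in this order, except that *Ccnd3* (5.11 to 7.62 CPM per kb) lay below every library of the other tested genes. The place of *Cdkn1a* depends in part on its length: the table gives 2223 bases and GENCODE M21 merged exons give 3553, with which its mean was 67.3 CPM per kb, still second.

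**Figure D1:**
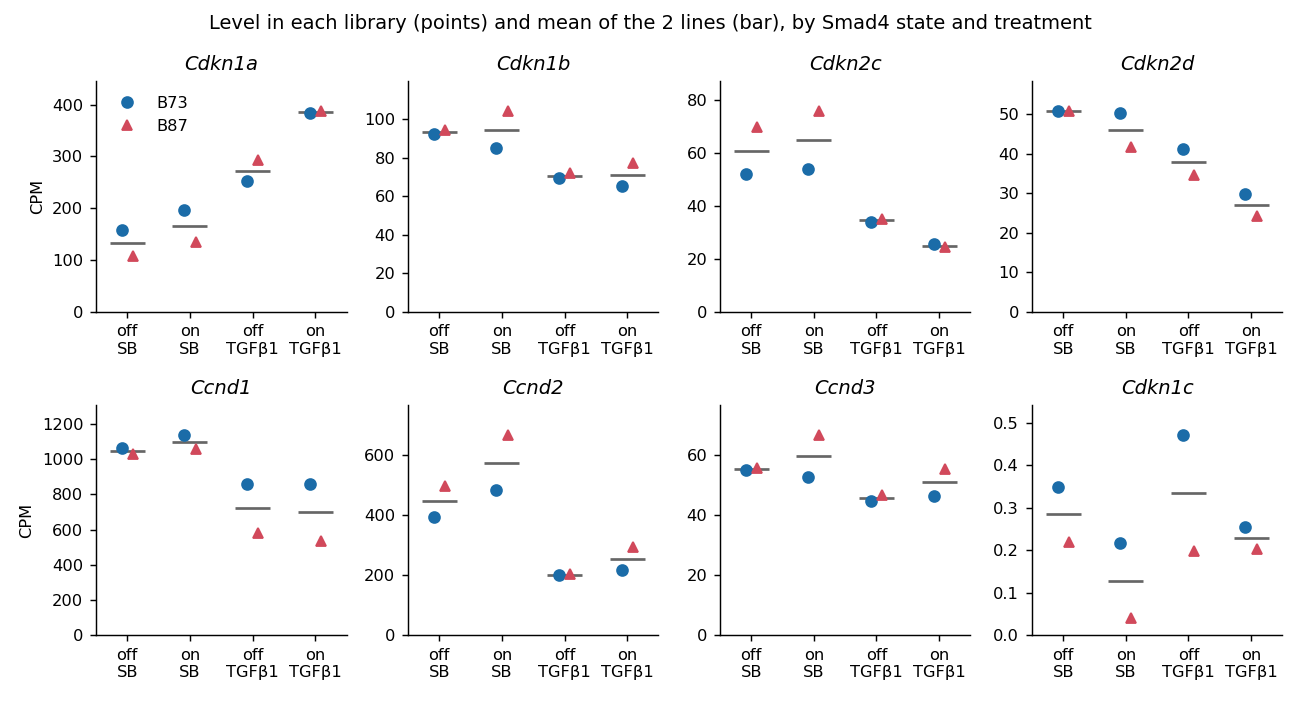
CPM of 8 genes (1 panel each, axes from 0) in each library by Smad4 state and treatment, with B73 as circles, B87 as triangles and the mean of both lines as a bar. *Cdkn1a* is higher and *Cdkn1b*, *Cdkn2c*, *Cdkn2d*, *Ccnd1* and *Ccnd2* are lower in every TGFβ1 library than in every SB505124 library, and *Cdkn1c* stays under 0.5 CPM. For *Cdkn2d* the nearest libraries are at 41.1 CPM (B73, Smad4 off, TGFβ1) and 41.6 CPM (B87, Smad4 on, SB505124). The share of all tested genes separated in this way was not counted.

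TGFβ1 against SB505124 in Smad4 on cells asks what the pathway does when Smad4 is present. *Cdkn1a* rose, 2 INK4 inhibitors and *Cdkn1b* fell, and 2 of the 3 D-type cyclins fell. Changes of more than 2-fold were seen for *Cdkn1a* (2.37-fold higher), *Cdkn2c* (2.56-fold lower) and *Ccnd2* (2.25-fold lower). So 3 of the 7 tested genes were called (Benjamini-Hochberg adjusted p under 0.05 in edgeR and over 2-fold), where 13.9% of the 14301 tested genes were, and 6 of 7 passed on adjusted p alone, where 33.2% of all genes did. By direction, 1 of the 7 rose, beside 15.6% of all tested genes, and 5 fell, beside 17.6%.

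*Cdkn1a*, which binds and inhibits cyclin-CDK2 complexes and is a p53 target, stood at 197 CPM in B73 and 134 CPM in B87 in Smad4 on cells under SB505124. Under TGFβ1 it stood at 385 CPM in B73 and 387 CPM in B87. Both TGFβ1 values lay above both SB505124 values, and the lines, which differed under SB505124, met under TGFβ1. The fit gave a log2 fold change of 1.24 ± 0.20 (SE), with an edgeR adjusted p of 0.00411. Taken within a line, the log2 difference in CPM was 0.97 in B73 and 1.53 in B87.

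*Cdkn2c*, an INK4 inhibitor of CDK4 and CDK6 that is itself known as an E2F target, stood at 53.9 CPM in B73 and 75.8 CPM in B87 under SB505124, and at 25.7 and 24.3 CPM under TGFβ1. The log2 fold change was -1.36 ± 0.16 (edgeR adjusted p = 0.00111), with -1.07 in B73 and -1.64 in B87. *Cdkn2d*, the other expressed INK4 inhibitor, went from 50.4 CPM in B73 and 41.6 CPM in B87 to 29.8 and 24.2 CPM. Its change of -0.77 ± 0.11 passed the test (edgeR adjusted p = 0.00251) without reaching 2-fold. The expressed INK4 genes and *Cdkn1a* thus moved in opposite directions in both lines.

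*Cdkn1b*, which is controlled largely by protein turnover, stood at 85.0 CPM in B73 and 104 CPM in B87 under SB505124, and at 65.3 and 77.3 CPM under TGFβ1. The decrease was small and alike in the lines (-0.38 and -0.43), and the fit gave -0.41 ± 0.10 (edgeR adjusted p = 0.0173). It did not pass when the B73 TGFβ1 library (adjusted p = 0.105), the B87 SB505124 library (0.134) or the B87 TGFβ1 library (0.0517) was left out, or without the line in the model (edgeR adjusted p = 0.0878).

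Among the D-type cyclins, *Ccnd2* stood at 484 CPM in B73 and 669 CPM in B87 under SB505124, and at 218 and 293 CPM under TGFβ1. The log2 fold change of -1.17 ± 0.12 (edgeR adjusted p = 0.000691) was the one with the lowest adjusted p among the 7 tested genes, and was close to the same in B73 (-1.15) and B87 (-1.19). *Ccnd1*, by far the most abundant D-type cyclin, stood at 1137 CPM in B73 and 1054 CPM in B87 under SB505124, and at 860 and 536 CPM under TGFβ1. It fell in both lines, by 0.40 in B73 and by 0.97 in B87 on the log2 scale, and the fit gave -0.68 ± 0.17 (edgeR adjusted p = 0.0205). That test did not pass without the B87 SB505124 library (edgeR adjusted p = 0.127), without the B87 TGFβ1 library (0.122) or without the line in the model (0.155).

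*Ccnd3*, the least abundant D-type cyclin per length, stood at 52.7 CPM in B73 and 66.8 CPM in B87 under SB505124, and at 46.5 and 55.5 CPM under TGFβ1. The groups overlapped, and the change of -0.23 ± 0.11 did not pass (edgeR adjusted p = 0.152). *Ccnd1* and *Ccnd3* overlap *Oraov1* and *Bysl* on the opposite strand, over 1771 and 361 bases, and whether strand was used in counting is not given in the sources used here.

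**Figure D2:**
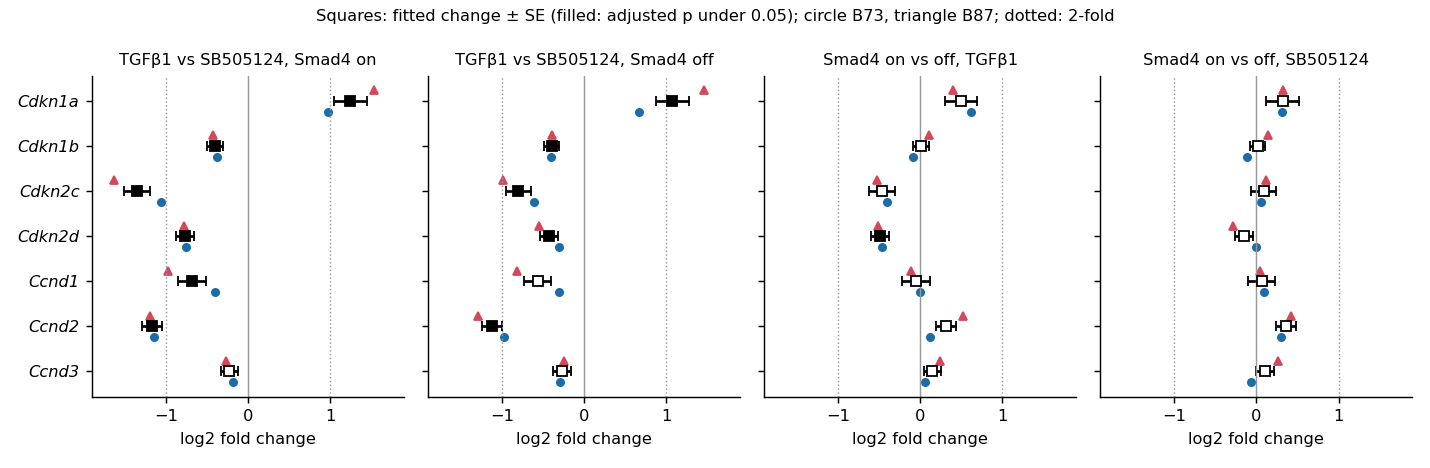
Log2 fold change of the 7 tested genes in 4 contrasts, with squares and bars for the edgeR estimate ± SE (filled where adjusted p was under 0.05), circles for B73, triangles for B87 and dotted lines at 2-fold. *Cdkn1a* lies right of 0 and the other 6 genes lie left of 0 in both TGFβ1 contrasts, and in the Smad4 contrasts the 1 filled square is *Cdkn2d* under TGFβ1.

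The same comparison was made in Smad4 off cells, with *Smad4* at 33.7 to 35.5 CPM. *Cdkn1a* was 2.10-fold higher and *Ccnd2* 2.18-fold lower, so 2 of 7 tested genes were called, against 5.93% of all tested genes. Counting adjusted p alone, 5 of 7 passed (*Cdkn1a* higher, *Cdkn1b*, *Cdkn2c*, *Cdkn2d* and *Ccnd2* lower), against 13.2% of all tested genes. The 1 that rose stands beside 6.96% of all tested genes that rose, and the 4 that fell beside 6.24%.

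*Cdkn1a* stood at 158 CPM in B73 and 107 CPM in B87 under SB505124, and at 252 and 293 CPM under TGFβ1. The groups did not overlap, and the log2 fold change was 1.07 ± 0.20 (edgeR adjusted p = 0.0174). The rise was 0.67 in B73 and 1.46 in B87, so the 2-fold call rested on B87. It did not pass without the B87 SB505124 library (edgeR adjusted p = 0.108) or the B87 TGFβ1 library (0.112).

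*Cdkn2c* stood at 52.1 CPM in B73 and 69.8 CPM in B87 under SB505124, and at 34.1 and 35.2 CPM under TGFβ1. The log2 fold change was -0.80 ± 0.15 (edgeR adjusted p = 0.0187), and it did not pass without the B73 TGFβ1 library (0.0639), the B87 SB505124 library (0.111) or the B87 TGFβ1 library (0.173). *Cdkn2d* went from 50.7 CPM in B73 and 50.8 CPM in B87 to 41.1 and 34.5 CPM, a change of -0.43 ± 0.11 (edgeR adjusted p = 0.0424). *Cdkn1b* went from 92.2 and 94.3 CPM to 69.6 and 71.9 CPM, a change of -0.40 ± 0.10 (edgeR adjusted p = 0.0380). The values of both genes were lower in each TGFβ1 library than in each SB505124 library, but their adjusted p values were close to the threshold. Leaving out a single library gave 0.0410 to 0.310 for *Cdkn2d*, passing in 1 of 8 cases, and 0.0470 to 0.326 for *Cdkn1b*, passing in 2 of 8.

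*Ccnd2* stood at 394 CPM in B73 and 499 CPM in B87 under SB505124, and at 201 and 204 CPM under TGFβ1. The log2 fold change was -1.12 ± 0.12 (edgeR adjusted p = 0.00243), and it passed with each single library left out, although without the B87 TGFβ1 library it was -0.92 and under 2-fold. *Ccnd1* stood at 1061 and 1025 CPM under SB505124 and at 860 and 580 CPM under TGFβ1. Its groups did not overlap either, but its change of -0.57 ± 0.17 did not pass (edgeR adjusted p = 0.0712), whereas DESeq2 with the same terms gave an adjusted p of 0.0124. *Ccnd3* went from 55.1 and 55.7 CPM to 44.8 and 46.9 CPM, also without overlap, and its change of -0.27 ± 0.11 did not pass (edgeR adjusted p = 0.151). Each of the tested genes was thus without overlap in Smad4 off cells. The share of all tested genes without overlap was not counted, so it lends no weight to a change. Without the line in the model, none of the 5 passed (edgeR adjusted p = 0.0722 for *Ccnd2*, 0.108 for *Cdkn1a*, 0.116 for *Cdkn2c*, 0.198 for *Cdkn1b* and 0.241 for *Cdkn2d*).

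Summed per kb, the D-type cyclins were lower and the 4 tested inhibitors higher under TGFβ1. Of the inhibitors, only *Cdkn1a* rose, while *Cdkn1b*, *Cdkn2c* and *Cdkn2d* fell like the cyclins. The D-type cyclin sum was 274 CPM per kb in B73 and 277 in B87 in Smad4 off cells under SB505124, and 299 and 302 in Smad4 on cells. Under TGFβ1 it was 209 and 150 in Smad4 off cells and 211 and 151 in Smad4 on cells. All 4 TGFβ1 libraries were lower than all 4 SB505124 libraries, and B87 was lower than B73 under TGFβ1 only. *Ccnd1* made up 74.0% to 87.3% of this sum in every library.

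The inhibitor sum was 143 and 127 CPM per kb in Smad4 off cells and 159 and 138 in Smad4 on cells under SB505124, in B73 and B87 in turn. Under TGFβ1 it was 167 and 183 in Smad4 off cells and 216 in both lines in Smad4 on cells. The share of *Cdkn1a* in the sum was 37.8% to 55.6% in the SB505124 libraries and 67.7% to 80.8% in the TGFβ1 libraries, while *Cdkn2c* went from 12.6% to 20.5% down to 4.20% to 7.58%. With the longer GENCODE M21 length of *Cdkn1a*, the mean inhibitor sum was 140 CPM per kb under TGFβ1 and 117 under SB505124. The sum in B73 Smad4 off cells with TGFβ1 (125) then fell below that in B73 Smad4 on cells with SB505124 (126). With that length, *Cdkn1a* made up 27.5% to 43.9% of the sum in the SB505124 libraries and 56.7% to 72.5% in the TGFβ1 libraries.

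**Figure D3:**
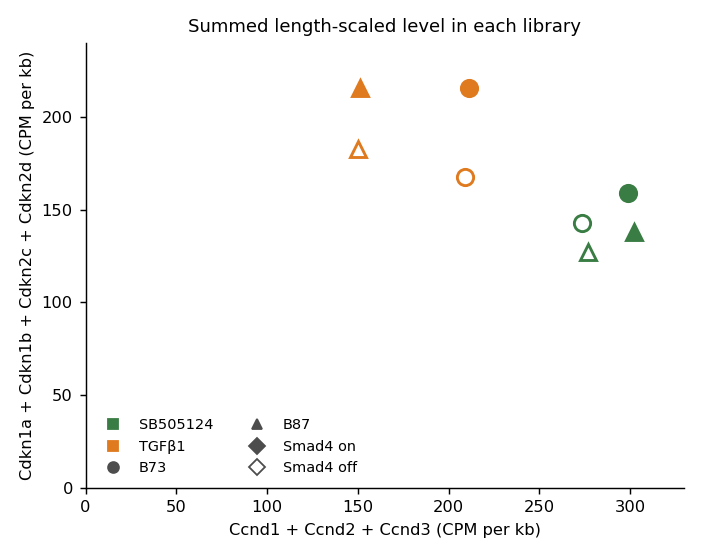
Summed CPM per kb of *Ccnd1*, *Ccnd2* and *Ccnd3* (horizontal) against that of *Cdkn1a*, *Cdkn1b*, *Cdkn2c* and *Cdkn2d* (vertical) in each library, both axes from 0, with SB505124 in green, TGFβ1 in orange, B73 as circles, B87 as triangles and Smad4 on filled. The TGFβ1 libraries lie to the upper left of the SB505124 libraries, from 150 to 211 on the horizontal axis against 274 to 302.

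Smad4 on was next compared with Smad4 off under TGFβ1, a difference that includes Dox withdrawal. *Cdkn2d* was 1.40-fold lower in Smad4 on cells (-0.49 ± 0.11, edgeR adjusted p = 0.0465, with -0.46 in B73 and -0.51 in B87), the 1 of 7 tested genes that passed. None of the 7 was called, against 3.12% of all tested genes, and 6.80% of all genes passed on adjusted p alone. With single libraries left out, the adjusted p of *Cdkn2d* ran from 0.0347 to 0.323 and passed in 2 of 8 cases, and without the line it was 0.283 in edgeR and 0.195 in DESeq2.

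*Cdkn1a* had a log2 difference of 0.49 ± 0.20 between Smad4 on and off cells under TGFβ1, with 385 against 252 CPM in B73 and 387 against 293 CPM in B87, and it did not pass (edgeR adjusted p = 0.192). *Cdkn2c* had -0.47 ± 0.16, with 25.7 against 34.1 CPM in B73 and 24.3 against 35.2 CPM in B87 (edgeR adjusted p = 0.134). Both differences had the same sign in each line. Both passed when no filter on low counts was applied (edgeR adjusted p = 0.0229 for *Cdkn1a* and 0.0379 for *Cdkn2c*). They also passed when only the 4 TGFβ1 libraries were fitted (edgeR adjusted p = 0.0242 and 0.0498). Neither gene passed in any other of the 16 alternatives run. Calls over all genes were 783 with no filter and 517 with only those 4 libraries, against 446 in the main fit. *Ccnd2* had 0.32 ± 0.12 (edgeR adjusted p = 0.171), and *Ccnd3*, *Cdkn1b* and *Ccnd1* lay between -0.05 and 0.15.

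With the receptor inhibitor SB505124 present, none of the 7 tested genes was called or passed, against 1.09% of all tested genes called and 1.59% passing. The lowest adjusted p was that of *Ccnd2* (0.36 ± 0.12, edgeR adjusted p = 0.263), which stood at 394 CPM off and 484 CPM on in B73 and at 499 and 669 CPM in B87. *Cdkn1a* had 0.32 ± 0.20 (edgeR adjusted p = 0.577) and *Cdkn2d* -0.15 ± 0.11 (edgeR adjusted p = 0.627). In edgeR, 4 of the 7 had an unadjusted p under 0.05 for Smad4 under TGFβ1, beside 3396 of all 14301 tested genes, and 1 did under SB505124, beside 1809, and DESeq2 with the same terms also called 0 in both.

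The interaction of Smad4 and TGFβ1 asks whether the response to treatment differed with Smad4. None of the 7 tested genes passed in edgeR (1 had an unadjusted p under 0.05, and DESeq2 called 0), against 0.196% of all tested genes, and 0.189% were called. The change of *Cdkn2c* under TGFβ1 was -1.36 with Smad4 on and -0.80 with Smad4 off, a difference of -0.55 ± 0.22 (edgeR unadjusted p = 0.0388, adjusted p = 0.438). That of *Cdkn2d* was -0.77 against -0.43, a difference of -0.34 ± 0.15 (edgeR adjusted p = 0.510). The difference for *Cdkn1a* was 0.17 ± 0.28 and for *Ccnd2* -0.05 ± 0.17, so for these genes a larger response with Smad4 was not shown.

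Between the lines, *Ccnd2* was 1.24-fold higher in B87 than in B73 (0.31 ± 0.08, edgeR adjusted p = 0.0435), the 1 of 7 tested genes that passed, and none was called, against 18.6% of all tested genes passing and 8.37% called. The *Ccnd2* difference did not pass when either Smad4 off SB505124 library, either Smad4 on SB505124 library or either Smad4 on TGFβ1 library was left out (edgeR adjusted p from 0.102 to 0.154). *Ccnd1* was lower in B87 by a margin that did not pass (-0.35 ± 0.12, edgeR adjusted p = 0.0883).

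The responses of 3 genes were further apart between the lines, without passing in edgeR. Averaged over Smad4 states, the TGFβ1 response of *Cdkn1a* was larger in B87 by 0.68 ± 0.11 on the log2 scale, that of *Ccnd1* was more negative by -0.54 ± 0.10 and that of *Cdkn2c* by -0.47 ± 0.12. None of these passed (edgeR adjusted p = 0.377, 0.476 and 0.534), and edgeR called 0 genes in the whole table for this term (0% called), with 1198 at an unadjusted p under 0.05. DESeq2 with the same terms called 25 genes and gave adjusted p = 0.00398 for *Cdkn1a* and 0.00520 for *Ccnd1*, neither over 2-fold, and edgeR without a filter on low counts gave 0.00338 and 0.00855. For the difference between lines in the Smad4 response, none of the 7 passed (lowest edgeR adjusted p = 0.583 for *Ccnd3*, 0 with an unadjusted p under 0.05, 0 called by DESeq2), against 0.406% of all tested genes passing and 0.392% called.

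The 0 counts of *Cdkn2a* and *Cdkn2b* were examined with their neighbors. These genes lie side by side on chromosome 4 (GRCm38), at chr4:89274471-89294653 and chr4:89306289-89311032 on the minus strand. *Cdkn2a* encodes p16 and the p53 regulator p19Arf, and *Cdkn2b* encodes p15. Of 69 genes overlapping the region and 1 Mb to either side, 53 had 0 counts in all 8 libraries, including *Mtap*, a broadly used methionine salvage gene often lost together with *CDKN2A* in human tumors. Genes without counts are common, as only 27770 of the 53465 genes in the whole table had a count in any library.

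In B73, 7 of the 69 genes reached 10 counts in a library, and in B87, 2 did. *Dmrta1*, a transcription factor gene at chr4:89679436-89694772, had 1029, 846, 1184 and 660 counts in the B73 libraries and 0 in each B87 library. *Klhl9*, a ubiquitin ligase adaptor gene at chr4:88718292-88722465, had 563, 483, 614 and 399 counts in B73 and 0 in each B87 library. Set against 3 counts per library, *Dmrta1* was at least 297-fold and *Klhl9* at least 165-fold lower in B87 (edgeR adjusted p = 0.000159 and 0.000281).

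The other named genes of the window were mixed, some at 0 in B87 and others present in both lines. The noncoding *Gm12603* had 26 to 48 counts in B73 and 0 in B87, at least 12.5-fold lower. *Hacd4*, a fatty acid elongation gene, had 5 to 30 counts in B73 and 0 in B87, at least 5.60-fold lower. *Gm12608* had 1 to 12 counts in B73 and 0 in B87. *Focad*, at the outer edge of the window, had 295 to 577 counts in B73 and 84 to 161 in B87, a log2 difference of -2.07 ± 0.13 (edgeR adjusted p = 0.000138). *Zfp352*, on the other side, had 3 to 12 counts in B73 and 1 to 5 in B87, and the pseudogene *Mrpl48-ps*, which shares 33.3% of its 75-base stretches with *Mrpl48*, had up to 9 and up to 19.

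Between the nearest genes with 10 or more counts, the stretch around *Cdkn2a* and *Cdkn2b* spanned 358 kb in B73, from *Gm12603* to *Gm12608*, and 9 of the 10 genes between them had 0 counts in all 4 libraries. In B87 it spanned 2651 kb, from *Mrpl48-ps* to *Elavl2*, and 65 of the 69 genes between them had 0 counts in all 4. The left end in B87 is uncertain, because *Mrpl48-ps* shares sequence with *Mrpl48*. The next gene before it with counts in B87 was *Focad*. Taking any gene with a count, the stretches without one were 337 kb with 9 genes in B73 and 1619 kb with 60 genes in B87. The B87 stretch again began at *Mrpl48-ps*. The shares of all genes of the table with 0 counts, or with 10 or more, in the libraries of 1 line were not counted. Many genes of the window are interferon genes that epithelial cells do not use at rest, and RNA counts cannot tell lost DNA from genes that are not transcribed. All values of *Cdkn2a* and *Cdkn2b* were the same, 0, with Smad4 on and off and under both treatments.

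**Figure D4:**
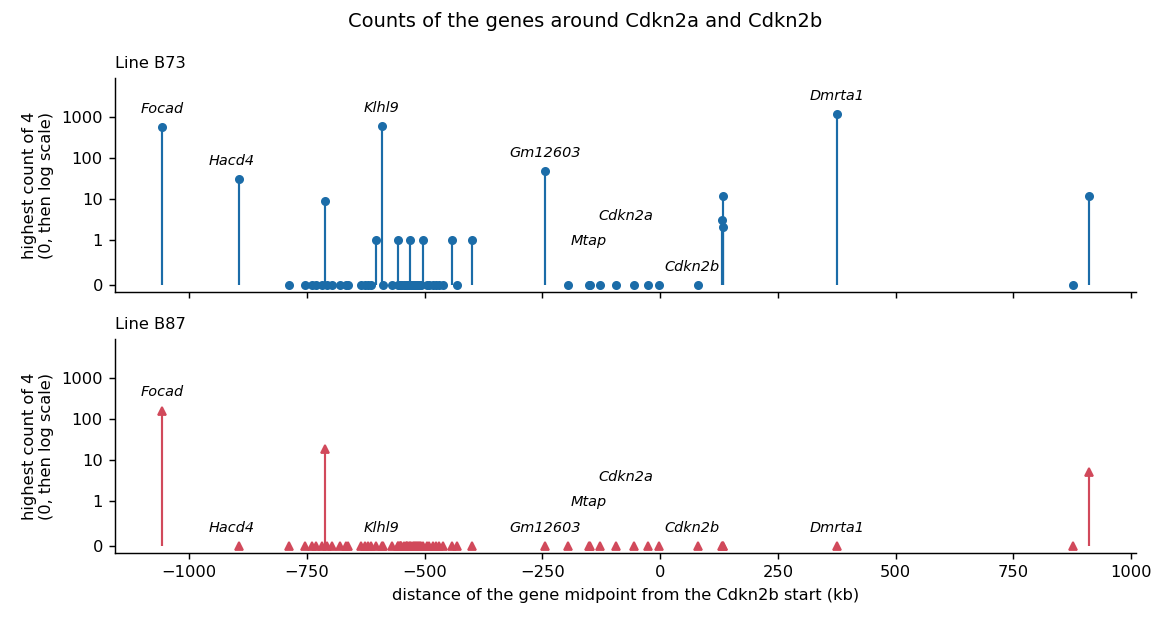
Highest count among the 4 libraries of each line (0, then a log scale) for the 69 genes around *Cdkn2a* and *Cdkn2b*, against distance of the gene midpoint from the *Cdkn2b* start in kb, with B73 above and B87 below. *Klhl9* and *Dmrta1* reach 614 and 1184 counts in B73 and are at 0 in B87, while *Cdkn2a*, *Cdkn2b* and *Mtap* are at 0 in both.

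The genes that these inhibitors and cyclins act through were read next, as 7 lists. Beside each count stand the shares of all tested genes, of which 15.6% rose and 17.6% fell in Smad4 on cells, and 6.96% rose and 6.24% fell in Smad4 off cells. Of 15 E2F target genes of S phase (the MCM helicase subunits, replication licensing and nucleotide synthesis genes), 11 fell under TGFβ1 in Smad4 on cells (17.6% of all tested genes) and 3 in Smad4 off cells (6.24%), and none rose. All 15 had negative values in both, with medians of -0.62 and -0.46 on the log2 scale beside -0.02 for all tested genes in each. The 1 gene past 2-fold was *Tk1*, thymidine kinase, at 167 and 166 CPM under SB505124 and 97.6 and 66.8 CPM under TGFβ1 in Smad4 on cells of B73 and B87 (-1.04 ± 0.14, edgeR adjusted p = 0.00208).

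Of 10 mitotic genes, 8 fell in Smad4 on cells (median -0.68, beside 17.6% of all tested genes falling) and 2 in Smad4 off cells (median -0.23, beside 6.24%). *Mki67*, the Ki-67 antigen gene, went from 1340 and 1396 CPM to 726 and 561 CPM in Smad4 on cells (-1.09 ± 0.14, edgeR adjusted p = 0.00166). *Cdc20*, an activator of the anaphase-promoting complex, went from 236 and 243 CPM to 133 and 103 CPM (-1.03 ± 0.13, edgeR adjusted p = 0.00164). These falls stood in the same libraries as the falls of *Cdkn2c* and *Ccnd2* and the rise of *Cdkn1a*, and a link between them was not tested. Under TGFβ1, all 10 mitotic genes were lower with Smad4 on than off by a median of -0.34, beside -0.0073 for all tested genes. Only 1 of the 10 passed, beside 6.80% of all tested genes. Under SB505124, 7 of the 10 were higher with Smad4 on (median 0.07). For no gene of either list did the interaction pass.

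Of the 13 RB and E2F family genes, 4 fell in Smad4 on cells and 2 in Smad4 off cells, beside 17.6% and 6.24% of all tested genes, and none rose. *E2f2*, an activator E2F, stood at 42.0 CPM in B73 and 39.0 CPM in B87 under SB505124 in Smad4 on cells and at 9.90 and 8.62 CPM under TGFβ1. Its change was -2.13 ± 0.18 (edgeR adjusted p = 0.000289), and in Smad4 off cells it went from 21.3 and 28.9 CPM to 14.8 and 16.5 CPM (-0.68 ± 0.17, edgeR adjusted p = 0.0414). Of the 10 G1 kinases and partners, 2 rose and 2 fell in Smad4 on cells, close to the 15.6% and 17.6% of all tested genes, and 2 fell in Smad4 off cells, beside 6.24%. *Cdk4* and *Cdk6*, the partners of the D-type cyclins, named here after their values were seen, had log2 differences of 0.05 ± 0.12 and -0.39 ± 0.15 in Smad4 on cells, and neither passed (edgeR adjusted p = 0.793 and 0.0859).

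Of 13 transcriptional regulators of the inhibitors, 3 rose and 3 fell in Smad4 on cells, beside 15.6% and 17.6% of all tested genes. In Smad4 off cells 3 rose and 2 fell, beside 6.96% and 6.24%. *Cbx7*, a Polycomb subunit known to repress *Cdkn2a*, fell from 43.8 and 36.4 CPM to 12.7 and 10.3 CPM in Smad4 on cells (-1.80 ± 0.11, edgeR adjusted p = 0.000109). *Myc*, named after its values were seen, rose with Smad4 on (0.63 ± 0.19, edgeR adjusted p = 0.0374). In Smad4 off cells *Myc* had 0.21 ± 0.18, which did not pass (edgeR adjusted p = 0.512).

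Of 15 p53 targets other than *Cdkn1a*, 3 rose and 1 fell in Smad4 on cells, where 15.6% of all tested genes rose and 17.6% fell, and 3 rose in Smad4 off cells, where 6.96% did. The list medians were 0.26 and 0.13. *Mdm2*, the ubiquitin ligase for p53, went from 169 and 127 CPM to 345 and 276 CPM with Smad4 on (1.07 ± 0.09, edgeR adjusted p = 0.000358). *Plk2*, a stress-induced kinase gene, went from 136 and 126 CPM to 459 and 407 CPM (1.73 ± 0.18, edgeR adjusted p = 0.000711). In Smad4 off cells *Plk2* also rose (1.34 ± 0.18, edgeR adjusted p = 0.00493). *Sesn1*, another p53 target, fell with Smad4 on (-1.04 ± 0.19, edgeR adjusted p = 0.00738). Of 10 genes for the turnover of the inhibitors and cyclins, 1 rose and 1 fell in Smad4 on cells and none passed in Smad4 off cells, where 13.2% of all tested genes did.

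The Smad4 contrasts were read over the same lists, with 6.80% of all tested genes passing under TGFβ1 and 1.59% under SB505124. Under TGFβ1, 1 RB and E2F family gene, 1 turnover gene and 1 mitotic gene were lower with Smad4 on, 1 p53 target was higher, and 2 regulators were higher and 2 lower. Under SB505124, 1 p53 target was higher and no other gene of the 7 lists passed. None of them was called in either Smad4 contrast.

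**Figure D5:**
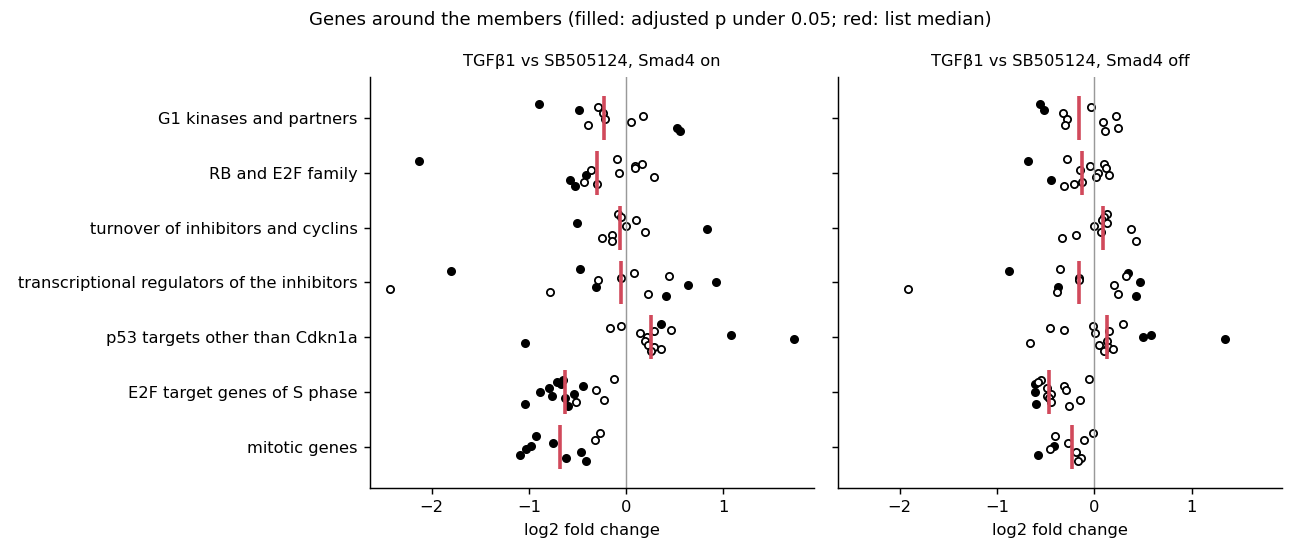
Log2 fold change of TGFβ1 against SB505124 for the genes of 7 lists in Smad4 on (left) and Smad4 off cells (right), with 1 point per gene, filled where the edgeR adjusted p was under 0.05, and a red bar at the list median. All 15 E2F targets and all 10 mitotic genes lie left of 0 in both panels, with 11 and 8 filled points in Smad4 on cells and 3 and 2 in Smad4 off cells, where the share of all tested genes that fell also went from 17.6% to 6.24%.

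The genes whose pattern over the 8 libraries was most like that of each called gene were taken by Pearson r of log2 CPM, each line centered on its own mean. For *Cdkn1a* they were *Hmg20b* (r = 0.999), *Dnpep* (0.996) and *Ltbp2* (0.996). For *Cdkn2c* they were *Uhrf1*, a maintenance methylation factor (r = 0.998), *Fam111a* (0.997) and *Ncaph2*, a condensin subunit (0.997). For *Ccnd2* they were *Flcn* (r = 0.990), *Fam120a* (0.990) and *Dnajb4* (0.988). These values share the same 8 libraries and their scaling and were picked as the highest of all tested genes, so they only describe likeness. Likeness in pattern was not likeness in size: *Hmg20b* stayed between 34.9 and 56.3 CPM, whereas *Ltbp2* ran from 0.549 to 92.9 CPM.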

How the data were processed

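RNA was measured in 8 libraries of 2 PDAC lines. The authors made stranded poly(A) libraries, sequenced single-end 75 bp reads, trimmed them with Trimmomatic 0.36 after FastQC 0.11.5, aligned them with STAR 2.5.3a to GRCm38 (mm10) and counted genes with featureCounts 1.6.3, as the methods and the submitters' processing notes give. The deposited values are raw counts per gene, 1 column per library. Groups came from the sample labels, which do not say that cultures were independent beyond the line, so p-values measure the spread between these libraries, which may be technical. The floor of 3 counts covers counting error only, while the SE comes from the fit and includes the spread between libraries.

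Counts were tested with edgeR 4.0.16 (R 4.3.3): TMM scaling, filterByExpr (14301 of 53465 genes), the quasi-likelihood F-test, 4 groups and the line in the model, all 8 libraries, and Benjamini-Hochberg adjustment over all tested genes. A called gene had adjusted p under 0.05 and over 2-fold. The study names DESeq2 and no covariate. Here the line is kept as a block because each line received all 4 treatments. Deviations of the same line correlated between groups with r of 0.642 to 0.774. SE is the size of the log2 fold change over the square root of F. Changes within a line use log2 CPM with a prior count of 2. Values per kb use the deposited gene lengths. Counts for TGFβ1 against SB505124 in Smad4 on cells (14301 genes) were also simulated from the fitted model. At adjusted p under 0.05, with no fold rule, the fit recovered 78% of 100 genes changed by 1 on the log2 scale. It recovered 91% of 100 changed by 2, and 5.06% of the genes that passed were unchanged. No other gene was changed there, whereas 33.2% of all tested genes passed in the data, so the error rate of the calls is not given by it.

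Members, lists and window were chosen with earlier results of these data known. All 10 members are given in full. List genes are named if called, up to 3 each way per list and contrast, window genes if they reached 10 counts in a library (plus *Mtap*), and look-alikes as the 3 with the highest r. Alternatives were edgeR with no line term, DESeq2 1.42.0 (line in or out of the model), its size factors, raw library totals, other filters and call rules, only the libraries compared, and each library or line left out. The GENCODE M21 length of *Cdkn1a* and the p53 half-site search were added after the data were seen. One further allele of the mouse model is not reported here.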

Additional observations from a re-analysis of the deposited data

How the results depend on the processing

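The count of the 7 tested genes called depended most on the rule. In Smad4 on cells, 3 were called and 6 passed without the fold rule, but 0 when the change had to exceed 2-fold by test (glmTreat). Of all 14301 tested genes, 1993, 4751 and 882 did so in turn. In Smad4 off cells, 2 were called, 5 passed without the fold rule, and 0 were called by glmTreat or by edgeR without the replicate block (the line). Of all 14301 tested genes, 848, 1888, 204 and 168 did so in turn in Smad4 off cells. The same all-gene counts stand beside those of the list genes below. Leaving out 1 library gave 0 to 2 there (1 without the B87 SB505124 library, 0 without the B87 TGFβ1 library). Without the fold rule, 1 gene passed for Smad4 under TGFβ1 and 1 between lines. For the list genes, 8 were called in Smad4 on cells, 39 without the fold rule, 3 by glmTreat and 4 to 13 with 1 library left out (4 and 5 without the B87 SB505124 or TGFβ1 library, 13 without either of those of B73). In Smad4 off cells 1 was called, 17 without the fold rule, 0 by glmTreat, 2 with no filter on low counts and 1 to 2 with 1 library left out (2 without the B87 SB505124 library). For Smad4 under TGFβ1, 0 list genes were called, 8 without the fold rule and 1 without the B87 Smad4 off TGFβ1 library, and under SB505124 there was 1 without the fold rule. For the interaction, DESeq2 with the line, DESeq2 without the replicate block and no low-count filter gave 1 each, against 0. Over all genes, these settings called 136, 39 and 284 for the interaction in turn, against 27 in the main fit. In Smad4 off cells, no low-count filter gave 1172 over all genes. No all-gene counts stand beside the counts with 1 library left out. The cause of these differences was not tested.

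Directions turned only for differences below 2 SE. *Cdkn1b* under TGFβ1, Smad4 on against off, was -0.0012 without a filter and -0.0019 with at least 10 counts in every library. With 1 library left out, the Smad4 difference under TGFβ1 ranged from -0.072 to 0.080 for *Cdkn1b* and from -0.29 to 0.16 for *Ccnd1*. Under SB505124 it ranged from -0.071 to 0.10 for *Cdkn1b*, from -0.091 to 0.25 for *Cdkn2c*, from -0.12 to 0.28 for *Ccnd1* and from -0.0060 to 0.21 for *Ccnd3*. The interaction ranged from -0.10 to 0.48 for *Cdkn1a*, from -0.10 to 0.075 for *Cdkn1b*, from -0.35 to 0.088 for *Ccnd1*, from -0.25 to 0.16 for *Ccnd2* and from -0.064 to 0.15 for *Ccnd3*. In the TGFβ1 contrasts, each of the 7 genes kept its direction in all 16 alternatives run. A left-out library leaves 1 sample in its group, which is assumed to vary like the other groups. With 1 line left out no test was possible. At 0 counts (*Cdkn2a*, *Cdkn2b*) and 1 to 11 counts per library (*Cdkn1c*), depth allowed no test.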
